A study of Mus musculus with 2 samples.

Results

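The Procr-positive basal cells of the mouse mammary gland described here are 311 cells, 271 from the library labelled Fgd5-ko and 40 from the library labelled WT, of 11732 basal cells and 12652 cells in all. A basal cell was a cell of the authors' table in which Krt5, Krt14, Acta2 and Tagln, the keratins and contractile genes of basal epithelium, made up at least 0.5% of its unique molecules (UMIs) and Krt5 plus Krt14 exceeded the luminal keratins Krt8 plus Krt18. A Procr-positive basal cell had at least 1 UMI of Procr and none of the stromal genes Col1a1, Col3a1, Lum and Pecam1. The levels of these 11 genes are therefore descriptions that follow from the choice of cells. Each Procr-positive cell was set against 5 Procr-negative basal cells of the same library, also free of those stromal UMIs, with nearly the same total UMIs. This gave 1355 matched cells in the library labelled Fgd5-ko and 200 in the library labelled WT.

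Cells were sorted by the surface markers CD24 (high) and CD29 (positive) from the mammary glands of C57BL/6 mice and read with a droplet 3' RNA assay, in 1 library of genotype Fgd5-ko, titled FGD5_cko_P4, and 1 of genotype WT, titled WT_P4. The labels do not give the driver or the deleted part of Fgd5, the age of the mice, how many mice were pooled, or what P4 stands for. Fgd5 itself went against the genotype label, at 4.01 CPM (UMIs of a gene per 1000000 summed UMIs) in basal cells of the library labelled Fgd5-ko and 0.824 CPM in those of the library labelled WT. The 3' tags may lie outside the deleted part, so this does not check the deletion. The library labelled Fgd5-ko was deeper, with a median of 15712 UMIs per cell against 4954 in the library labelled WT. With 1 library per genotype no comparison has a replicate check and no test was made. All bounds in parentheses are exact and at the 95% level, and cover the counting of molecules or cells alone.

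Procr encodes the endothelial protein C receptor, a surface protein that holds protein C while thrombin bound to thrombomodulin activates it. In the mammary gland, Procr has been used to mark a rare set of basal cells that, in lineage tracing, gave rise to both basal and luminal cells, and that carry features of an epithelial-to-mesenchymal transition (EMT). Endothelial cells and fibroblasts also express the gene. Fgd5 belongs to the FGD family of exchange factors, which load the small GTPase Cdc42 with GTP.

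Most Procr-positive basal cells rested on a single molecule. Of the Fgd5-ko-labelled cells, 243 of the 271 cells had 1 Procr UMI, 19 had 2, and 9 had at least 3. The 9 cells had 3, 3, 4, 7, 8, 9, 10, 12 and 19 Procr UMIs and held 75 of the 356 Procr UMIs of the set, or 21.1%. All 40 cells of the WT-labelled library had exactly 1 Procr UMI. Among these selected cells, the tail with many Procr UMIs was thus seen in the Fgd5-ko-labelled library alone. The cells of that library were also more deeply read. Outside the authors' table, WT-labelled basal barcodes free of stromal UMIs held up to 5 Procr UMIs.

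**Figure D1:**
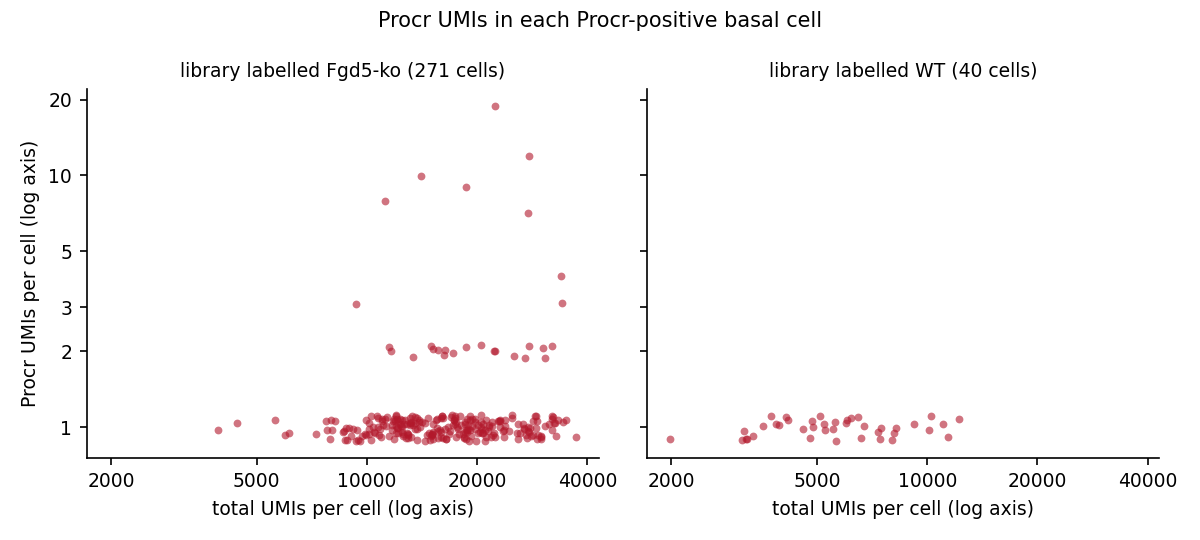
Procr UMIs (vertical, log axis, points spread slightly to avoid overlap) against total UMIs (horizontal, log axis) for each Procr-positive basal cell, with the Fgd5-ko-labelled library on the left and the WT-labelled library on the right. In the Fgd5-ko-labelled library 9 of 271 cells lie at 3 or more Procr UMIs, up to 19, and in the WT-labelled library all 40 lie at 1.

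Whether 1 Procr UMI marks expression depends on the background of free RNA, which gives molecules to cells that do not make them. Procr-positive cells made up 5.65% (5.01 to 6.34) of basal cells without stromal UMIs in the Fgd5-ko-labelled library and 0.724% (0.518 to 0.984) in the WT-labelled library. Thinned once to 2000 UMIs per cell, the shares were 0.834% (0.596 to 1.13) and 0.310% (0.181 to 0.496), with 0 and 53 basal cells left out as too shallow (counted before the stromal filter). Thinned to 5000 UMIs, they were 2.08% (1.70 to 2.53) and 0.683% (0.405 to 1.08), with 53 and 3090 basal cells left out. As summed UMIs, Procr stood at 4.39 CPM in these cells of the Fgd5-ko-labelled library and 1.31 CPM in those of the WT-labelled library.

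Luminal cells, picked by their keratins from all barcodes, served as cells in which Procr is not expected. Of 148 luminal cells in the WT-labelled library 2 had a Procr UMI, or 1.35% (0.164 to 4.80), at a median of 12079 UMIs against 4902 in the basal cells. As the mean over draws of 5000 UMIs per cell, the share was 0.646% in basal cells without stromal UMIs and 0.557% in luminal cells of the WT-labelled library, and over draws of 2000 UMIs it was 0.268% and 0.186%. Procr stood at 1.31 CPM (0.936 to 1.78) in these basal cells and 1.65 CPM (0.340 to 4.81) in luminal cells. The interval of the luminal cells, set by 3 UMIs in 2 cells, holds the basal level, so the 40 cells could not be told apart from background and are not read here as cells that express Procr. In the Fgd5-ko-labelled library only 14 luminal cells and 9 T cells were found, none with a Procr UMI, which allows shares of up to 21.4% and 33.3%. No background could be set there for cells with 1 Procr UMI.

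Procr was abundant in other cell types of the same libraries. Fibroblasts held 234 CPM in the Fgd5-ko-labelled library and 130 CPM in the WT-labelled library, with a Procr UMI in 55.4% and 43.7% of cells. Endothelial cells held 222 and 76.9 CPM in the same order of libraries, with a Procr UMI in 38.3% and 18.9% of cells. Both types thus carried Procr far above basal cells.

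Inside a library the share of Procr-positive cells differed less between groups of cells than depth did. In the Fgd5-ko-labelled library the basal cells were put into 4 equal groups by total UMIs, and the shares among cells without stromal UMIs, shallow to deep, were 4.68%, 5.45%, 6.10% and 6.49%. Median UMIs were 9676 in the shallowest and 27077.5 in the deepest group. The stromal filter itself moved with depth, as 10.9%, 13.3%, 15.5% and 21.6% of basal cells in these groups had a stromal UMI. Procr in the same groups was 6.01, 4.69, 3.91 and 3.96 CPM. The WT-labelled shares among cells without stromal UMIs were 0.704%, 0.423%, 0.805% and 0.982%, with intervals that overlap.

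Over all Procr counts, stromal UMIs were about as common in Procr-positive as in all basal cells of the Fgd5-ko-labelled library. Of all Procr-positive basal cells, 53 of 324 in the Fgd5-ko-labelled library carried a UMI of Col1a1, Col3a1, Lum or Pecam1 and were left out, or 16.4%, against 15.3% of all basal cells there. Among WT-labelled cells 6 of 46 did, or 13.0%, against 8.87% of all basal cells. Of the cells left out, 5 in the Fgd5-ko-labelled library had at least 3 Procr UMIs, up to 9, beside 9 of the cells kept. Cells with at least 3 Procr UMIs thus had a stromal UMI more often than all basal cells there, though they are few. This comparison is not matched on depth, and the 9 cells kept had a median of 22412 UMIs, against 15863 in all basal cells. The highest cell left out in the WT-labelled library had 2.

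Fibroblast markers that the choice did not use were close in sum to the matched level in the Fgd5-ko-labelled library, while pericyte and adipocyte markers were higher there. The fibroblast list (Dcn, Pdgfra, Fbln1 and others) summed to 333 CPM in Procr-positive and 327 CPM in matched cells of the Fgd5-ko-labelled library, and to 236 and 263 CPM in those of the WT-labelled library. Dcn gave 1059 of the 1601 fibroblast marker UMIs of the Procr-positive cells of the Fgd5-ko-labelled library, and without it the list summed to 113 and 107 CPM, a log2 ratio of 0.08 (-0.06 to 0.21). Of 11 members measured there, 2 (Mfap5 and Clec3b) were at least 1.5-fold higher and 1 (Pi16) lower, with a median log2 ratio of 0.22 beside -0.01 over all genes. Among all 12768 genes measured there, 4.06% were at least 1.5-fold higher and 6.38% lower. Dcn, a fibroblast proteoglycan, had a UMI in 65.3% (59.3 to 71.0) of Procr-positive and 63.8% (61.2 to 66.4) of matched cells of the Fgd5-ko-labelled library, and in 35% and 36.5% in the WT-labelled library. Fibroblasts themselves held 10585 and 7697 CPM of Dcn in the 2 libraries. None of 12 fibroblast markers was at 0 in the Procr-positive cells of the Fgd5-ko-labelled library, and 4 were at 0 in those of the WT-labelled library. Over all Procr counts, Dcn molecules were thus found about as often with Procr as without it in each library. The 28 cells with at least 2 Procr UMIs, all of the Fgd5-ko-labelled library, had less Dcn, at 145 CPM against 234 CPM in their matched cells. Their log2 ratio was -0.69 (-1.03 to -0.36) for Dcn and -0.46 (-0.72 to -0.21) for the fibroblast list.

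Of the other cell types, endothelial markers summed to 12.5 CPM in Procr-positive and 13.7 CPM in matched cells of the Fgd5-ko-labelled library, with 2 of 10 markers at 0. Among WT-labelled cells they summed to 4.14 and 29.0 CPM, with 9 of 10 at 0 in the Procr-positive cells. Pericyte markers stood at 16.2 CPM in Procr-positive and 8.37 CPM in matched cells of the Fgd5-ko-labelled library, a log2 ratio of 0.96 (0.56 to 1.34). Of the 4 measured, 3 (Rgs5, Notch3 and Des) were at least 1.5-fold higher, beside 4.06% of all genes. Adipocyte markers had 168 and 371 UMIs there, a log2 ratio of 1.18 (0.91 to 1.45), nearly all from Fabp4, which is described further on. The part of RNA from such cells in the results was not tested. Rgs5, a pericyte marker, had 7.91 and 3.83 CPM there, with 28.9% of its UMIs from 1 cell.

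On the authors' map the Procr-positive cells of the Fgd5-ko-labelled library did not gather in one place. Among the 15 nearest basal cells of the same library on the t-SNE coordinates, 5.66% were Procr-positive around Procr-positive cells and 5.73% around matched cells of the Fgd5-ko-labelled library, where 5.65% of all cells were. Around WT-labelled cells the shares were higher for Procr-positive than for matched cells, at 1.33% and 0.5%, where 0.724% of all cells were. No Procr-positive neighbour was found for 82.5% of the Procr-positive and 93% of the matched cells there. These WT-labelled shares rest on 40 Procr-positive cells. The 9 cells with at least 3 Procr UMIs also lay apart from each other.

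**Figure D2:**
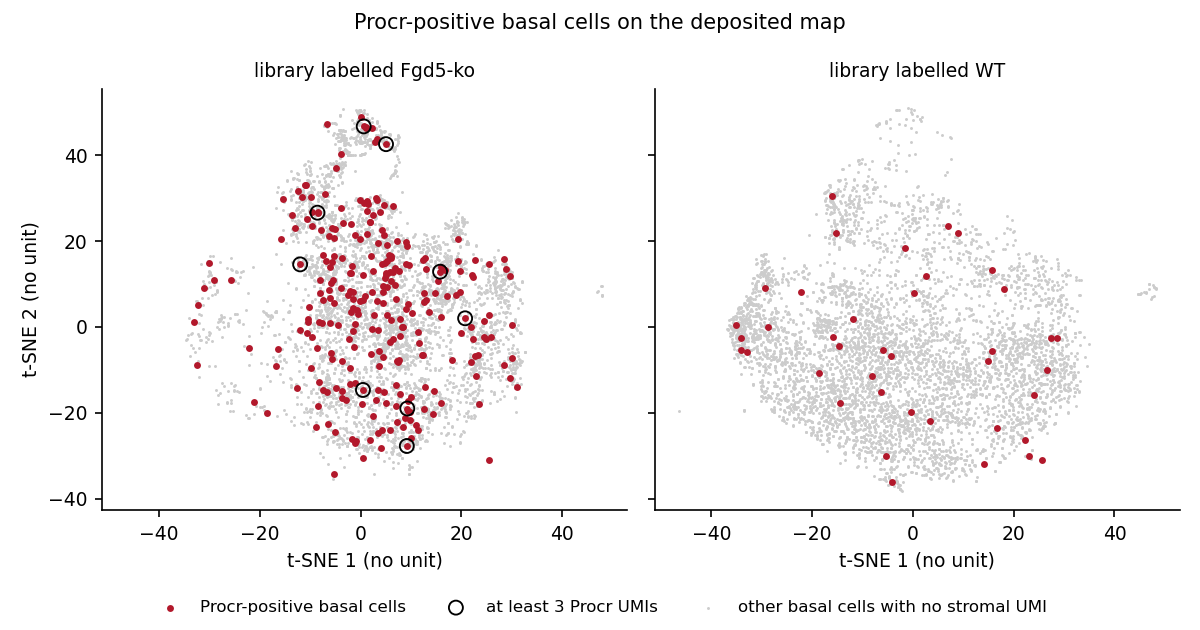
The deposited t-SNE map (coordinates without unit) of basal cells without stromal UMIs, with the Fgd5-ko-labelled library on the left and the WT-labelled library on the right; red points are Procr-positive cells, rings mark cells with at least 3 Procr UMIs and grey points are other basal cells. Red points are spread over the map in both libraries, 271 on the left and 40 on the right.

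The selected cells carried a basal program like that of their matched cells. The 4 basal marker genes of the rule took a median of 1.29% of UMIs in Procr-positive and in matched cells of the Fgd5-ko-labelled library, and 2.04% and 1.97% in those of the WT-labelled library, which the choice of cells in part fixes. The cells nearest the limit had 0.515% and 0.517% inside it and 0.496% and 0.492% outside it in the Fgd5-ko-labelled library, and 0.534% inside and 0.0314% outside in the WT-labelled library. Procr-positive cells free of stromal UMIs that fell under the limit numbered 12 and 1 in these libraries.

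Basal genes that the choice did not use were close as well. None of 8 (Krt17, Trp63, Myh11, Mylk, Cnn1, Oxtr, Lmod1 and Actg2) passed 1.5-fold in the Fgd5-ko-labelled library, beside 4.06% higher and 6.38% lower of all genes. Their median log2 ratio was 0.08, beside -0.01 over all genes. Trp63, the master transcription factor of basal epithelium, had 96.6 CPM in Procr-positive and 86.0 CPM in matched cells. Oxtr, the oxytocin receptor of contractile basal cells, had 221 and 200 CPM. Among WT-labelled cells, Actg2, a smooth muscle actin, had 261 CPM in Procr-positive and 439 CPM in matched cells, a log2 ratio of -0.75 (-1.15 to -0.37), and the other 7 did not pass 1.5-fold, against 12.9% higher and 16.4% lower of all 6135 genes measured there.

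The groups were also alike in quality. Median UMIs were 16354 in Procr-positive and 16357 in matched cells of the Fgd5-ko-labelled library, and 5556 and 5558 in those of the WT-labelled library, as the matching set them. Median genes per cell were 3763 and 3790 in the Fgd5-ko-labelled library, and 1827.5 and 1801 in the WT-labelled library. Mitochondrially encoded UMIs took a median of 4.74% and 4.57% in the Fgd5-ko-labelled library, and 5.29% and 4.76% in the WT-labelled library. Barcodes shared with the other library numbered 2 and 1 among the Procr-positive cells.

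Genes of cell division, summed, were lower in Procr-positive than in matched cells of both libraries. Of 20 G2/M genes, 20 lay below the matched level by 1.5-fold or more in the Fgd5-ko-labelled library, beside 6.38% of all genes, with a median log2 ratio of -1.26 beside -0.01 over all genes. The list, which holds kinases, cyclins and motors of mitosis, summed to 317 CPM in Procr-positive and 744 CPM in matched cells, a log2 ratio of -1.23 (-1.31 to -1.15). Mki67, the proliferation antigen, had 31.9 and 74.9 CPM, and Top2a, the DNA topoisomerase that untangles chromosomes, had 46.0 and 86.2 CPM. Ccnb1, cyclin B1, had 7.29 and 24.9 CPM, and Ube2c, which drives mitotic exit, had 24.8 and 74.4 CPM.

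The share of cells with an Mki67 or Top2a UMI gave a smaller gap than the summed UMIs. A UMI of Mki67 or Top2a was found in 44 of 271 Procr-positive cells of the Fgd5-ko-labelled library, or 16.2% (12.1 to 21.2), and in 329 of 1355 matched cells, or 24.3% (22.0 to 26.7). A single UMI can come from free RNA, and the share was 6.20% (4.38 to 8.48) in fibroblasts, at a median of 12725 UMIs, and 10.8% (8.13 to 14.1) in endothelial cells, at 8473.5 UMIs, of the same library. These cells may divide as well, so the part of free RNA in the share was not tested. The summed G2/M UMIs come from few cells, so their counting interval understates their error. The G2/M list of the WT-labelled library had 4 UMIs in Procr-positive cells (16.6 CPM) and 165 in matched cells (137 CPM), a log2 ratio of -3.04 (-4.94 to -1.66). Mki67 or Top2a was found there in 0 of 40 Procr-positive cells, which allows a share of up to 7.5%, and in 7 of 200 matched cells, or 3.5% (1.42 to 7.08).

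**Figure D3:**
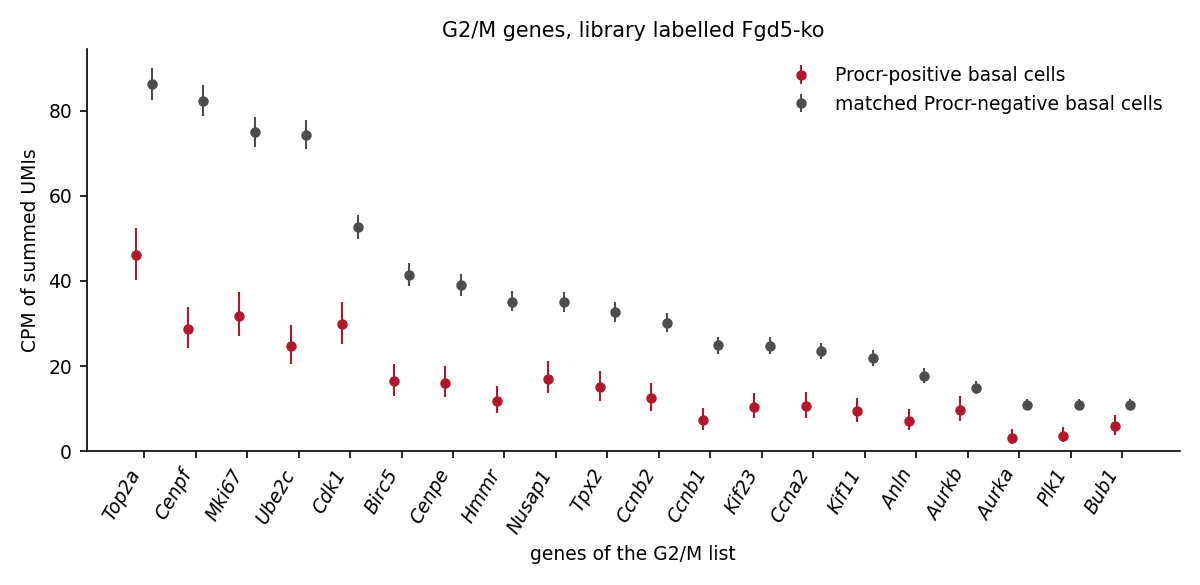
Level of each of the 20 G2/M genes (CPM of summed UMIs, linear axis from 0) in the Fgd5-ko-labelled library, with Procr-positive basal cells in red and matched Procr-negative basal cells in grey; bars are exact 95% Poisson intervals. Every red point lies below its grey partner, as for Mki67 at 31.9 and 74.9 CPM.

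The G2/M difference did not hold in every choice of cells. With a wider filter that removed cells with a UMI of any other fibroblast marker but Dcn, 52 Procr-positive cells were left in the Fgd5-ko-labelled library, and the log2 ratio of the G2/M sum turned to 0.07. Among those cells 13.5% had an Mki67 or Top2a UMI, against 15% of their matched cells. It also varied with the Procr count, as 1.35 log2 units lower for the 243 cells with 1 Procr UMI (298 and 761 CPM), and 0.56 higher for the 9 cells with at least 3 (1283 CPM, and 868 CPM in their matched cells). Those 9 include 1 cell with 30 Mki67 UMIs and 1 with 9.

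Genes of DNA replication pointed the same way with a smaller gap. Of 20 S phase genes in the Fgd5-ko-labelled library, 7 were at least 1.5-fold lower and none higher, beside 6.38% lower and 4.06% higher of all genes, with a median log2 ratio of -0.48. The list summed to 409 CPM in Procr-positive and 523 CPM in matched cells, a log2 ratio of -0.36 (-0.43 to -0.29). Tyms, thymidylate synthase, had 25.6 and 38.8 CPM, and Mcm6, a subunit of the replicative helicase, had 14.4 and 22.9 CPM. The WT-labelled cells had list sums of 265 and 345 CPM, a log2 ratio of -0.38 (-0.79 to 0.00), and 3 of 9 genes measured were at least 1.5-fold lower, on 1 or 2 UMIs each in Procr-positive cells, beside 16.4% of all genes measured there. The 28 cells with at least 2 Procr UMIs went the other way, at 666 CPM against 518 CPM in their matched cells (log2 ratio 0.36, 0.20 to 0.52).

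**Figure D4:**
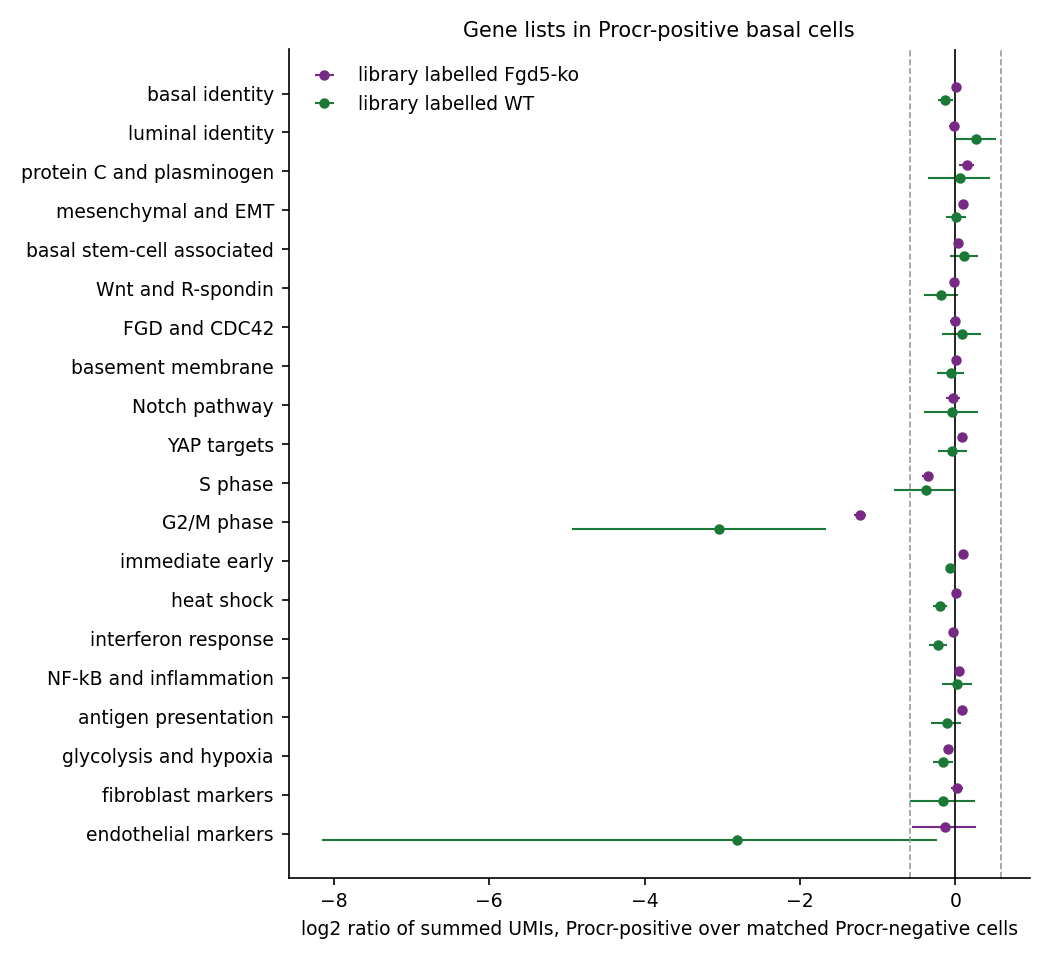
Log2 ratio of summed UMIs of 20 gene lists (rows), Procr-positive over matched Procr-negative basal cells, in the Fgd5-ko-labelled library (purple) and the WT-labelled library (green); bars are exact 95% intervals for counting error and dashed lines mark 1.5-fold. The G2/M list lies furthest left in the Fgd5-ko-labelled library, at -1.23, and most other lists lie near 0.

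The genes named by rule came from those with at least 50 CPM in both libraries and the same direction in both. The 12 lowest were Stmn1, Lsm6, Tuba1b, Hmgb2, Cks1b, Selenoh, H2afx, Dctpp1, H2afz, Mrto4, Fkbp2 and Nme1, with log2 ratios of -0.69 to -0.42 in the Fgd5-ko-labelled library. Stmn1, a microtubule-destabilizing protein, had 194 CPM in Procr-positive and 313 CPM in matched cells of the Fgd5-ko-labelled library, and 190 and 326 CPM in those of the WT-labelled library. Hmgb2, a chromatin protein that is high in dividing cells, had 272 and 415 CPM in the Fgd5-ko-labelled library, and 161 and 284 CPM in the WT-labelled library. H2afz, the variant histone H2A.Z, had 595 and 812 CPM, and 389 and 557 CPM, in the same order. Stmn1 turned to a log2 ratio of 0.06 and Hmgb2 to 0.20 under the wider stromal filter without Dcn.

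The other named genes on the low side differed by less than 1.5-fold or just over it. Tuba1b, an alpha-tubulin, had 175 CPM in Procr-positive and 271 CPM in matched cells of the Fgd5-ko-labelled library. Cks1b, a partner of cyclin-dependent kinases, had 68.9 and 99.3 CPM, and Dctpp1, a dCTP pyrophosphatase, had 58.9 and 82.3 CPM. Nme1, a nucleoside diphosphate kinase, had 146 and 195 CPM, and Mrto4, a ribosome assembly factor, had 49.4 and 66.2 CPM. Lsm6, a subunit of an RNA-binding ring in splicing and decay, had 40.6 and 62.9 CPM, and H2afx, the variant histone H2A.X, had 43.9 and 62.1 CPM. Selenoh, a selenoprotein, had 81.4 and 117 CPM, and Fkbp2, a prolyl isomerase of the endoplasmic reticulum, had 75.2 and 101 CPM. For WT-labelled cells the intervals of the log2 ratio lay below 0 for Stmn1, Tuba1b, Hmgb2 and H2afz and spanned 0 for the other 8. The rule required the same direction in both libraries, so these intervals are not a separate check.

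The 12 highest genes differed less, and none reached 1.5-fold in the Fgd5-ko-labelled library. They were Gprin3, Map1b, Mmp2, Cd74, Nfkbiz, Mia, Crip1, Eva1b, Pnisr, Id3, Atp6v0d1 and Zmiz1, with log2 ratios of 0.28 to 0.37. Id3, an inhibitor of helix-loop-helix transcription factors, had 225 CPM in Procr-positive and 184 CPM in matched cells of the Fgd5-ko-labelled library, and 671 and 456 CPM in those of the WT-labelled library. The log2 ratios of Id3 were 0.29 (0.19 to 0.39) and 0.56 (0.29 to 0.81), and of the 12 genes it alone had an interval above 0 in both libraries. The rule required the same direction in both libraries, so this is not a separate check. Without the cell with the highest count of Id3 UMIs in each library, a choice made after the values were seen, its log2 ratios were 0.16 (0.06 to 0.26) and 0.35 (0.07 to 0.62). Mmp2, a secreted gelatinase of the EMT list, had 81.2 and 64.2 CPM in the Fgd5-ko-labelled library, and its log2 ratio in the WT-labelled library was 0.27 with all cells and -0.13 without such a cell. Fibroblasts of the Fgd5-ko-labelled library held far more of both, at 3395 CPM of Id3 and 623 CPM of Mmp2, against 195 and 67.6 CPM in all its basal cells. The part of RNA from fibroblasts in these ratios was not tested. Cd74, the invariant chain of class II antigen presentation, had 90.2 and 71.5 CPM there, and 82.4% of its UMIs in Procr-positive cells of the WT-labelled library came from 1 cell. Without that cell its log2 ratio there was -1.79 (-4.11 to -0.16), so its shared direction rests on 1 cell.

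**Figure D5:**
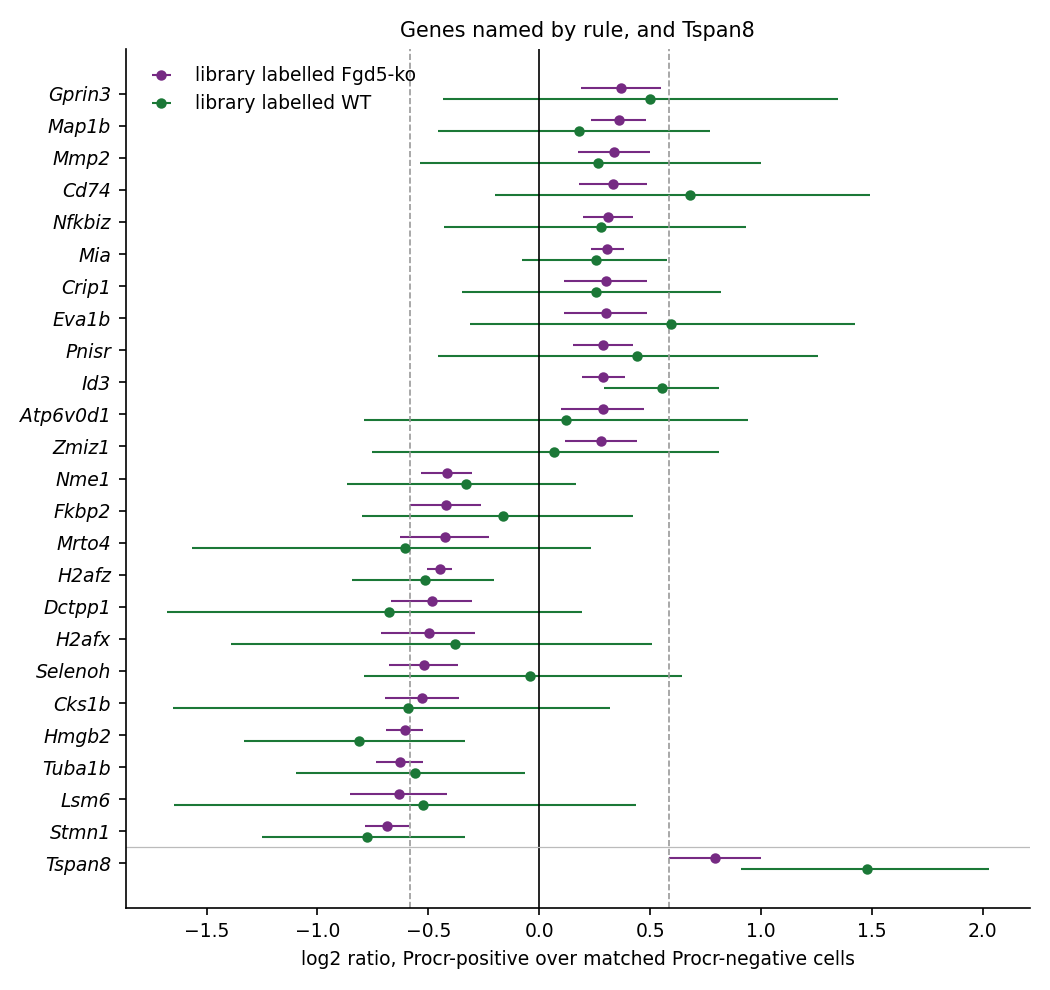
Log2 ratio of Procr-positive over matched Procr-negative basal cells for the 12 highest and 12 lowest genes named by rule and, under the thin line, Tspan8, in the Fgd5-ko-labelled library (purple) and the WT-labelled library (green); bars are exact 95% intervals for counting error and dashed lines mark 1.5-fold. Tspan8 lies right of 1.5-fold in both libraries, at 0.79 and 1.48, and the 12 highest genes lie left of it in the Fgd5-ko-labelled library.

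The libraries shared direction only weakly across genes. Of 2021 genes with at least 50 CPM in both, 56.3% had the same sign, and the Pearson correlation of the log2 ratios across genes was 0.175. Of the 414 with at least 200 CPM, 67.1% had the same sign and the correlation was 0.405. Genes are not independent replicates, and with 40 cells most ratios of the WT-labelled library carry large counting error.

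Among genes tied to basal stem cells, Tspan8 stood out. This tetraspanin has, with the R-spondin receptor Lgr5, marked quiescent mammary stem cells in mice. Tspan8 had 53.1 CPM in Procr-positive and 30.6 CPM in matched cells of the Fgd5-ko-labelled library, a log2 ratio of 0.79 (0.583 to 1.002). WT-labelled cells gave it 182 and 65.4 CPM, a log2 ratio of 1.48 (0.91 to 2.03). The share of cells with a Tspan8 UMI was 20.7% (16.0 to 26.0) and 16.0% (14.1 to 18.1) in the Fgd5-ko-labelled library, and 22.5% (10.8 to 38.5) and 14% (9.51 to 19.6) in the WT-labelled library, with intervals that overlap. Cells with 1 Procr UMI had 50.5 CPM and their matched cells 33.0 CPM, a log2 ratio of 0.61 (0.39 to 0.84). The 9 cells with at least 3 Procr UMIs had 116 CPM and their matched cells 15.1 CPM, at 2.94 (1.94 to 3.98), but 2 of the 9 held 11 and 9 of the 23 Tspan8 UMIs. Without those 2 cells, and with all matched cells kept, the ratio was 0.22 (-2.21 to 2.04). Taking the highest cells from 1 side alone lowers the ratio, so this cannot decide whether it rises with the Procr count. The 28 cells with at least 2 Procr UMIs, which include the 9, had 71.5 CPM and their matched cells 13.3 CPM. Their log2 ratio was 2.43 (1.76 to 3.096), from 42 and 39 UMIs. Over all Procr counts, the ratio turned to -0.27 in the 60 cells of 4000 to 12000 UMIs and to -0.16 in the 21 cells left by a stromal filter with Dcn, both in the Fgd5-ko-labelled library.

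Lgr5 did not follow Tspan8. It had 55.8 CPM in Procr-positive and 52.6 CPM in matched cells of the Fgd5-ko-labelled library, a log2 ratio of 0.08 (-0.11 to 0.28), and 58.0 and 62.1 CPM in those of the WT-labelled library, at -0.10 (-1.04 to 0.74). Cells with UMIs of both Lgr5 and Tspan8 made up 14.02% (10.1 to 18.7) of Procr-positive and 10.9% (9.31 to 12.7) of matched cells of the Fgd5-ko-labelled library, and 10% (2.79 to 23.7) and 4.5% (2.08 to 8.37) in the WT-labelled library. Of the 9 cells with at least 3 Procr UMIs, 6 had Lgr5.

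Other genes of the stem-cell list were near their matched level. In the Fgd5-ko-labelled library, Tspan8 was the 1 gene of 15 measured that passed 1.5-fold, beside 4.06% higher and 6.38% lower of all genes. The median log2 ratio of the list was 0.04. Itga6, the laminin-binding integrin used to sort basal cells, had 309.7 CPM in Procr-positive and 313 CPM in matched cells, and Sox9, a transcription factor of mammary stem and progenitor cells, had 155 and 145 CPM. Dll1, a Notch ligand of basal stem cells, had 80.0 and 81.4 CPM. Among WT-labelled cells 3 of 12 (Tspan8, Bcl11b and Mcam) were higher and 2 (Sox10 and Gng11) lower, beside 12.9% and 16.4% of all genes, from 3 to 9 UMIs in Procr-positive cells for all but Tspan8.

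Of the genes of the protein C and plasminogen systems, in which Procr acts, 3 are given here. Thbd, the thrombomodulin that pairs with Procr, was found in 4 of 271 Procr-positive cells of the Fgd5-ko-labelled library, or 1.48% (0.404 to 3.74), and in 10 of 1355 matched cells, or 0.738% (0.354 to 1.35). WT-labelled cells had it in 0 of 40 and 2 of 200 cells. Pros1, the protein S cofactor of activated protein C, had 60.8 CPM in Procr-positive and 64.0 CPM in matched cells of the Fgd5-ko-labelled library, and Plat, tissue plasminogen activator, had 46.2 and 46.3 CPM.

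EMT genes, a feature with which Procr-marked basal cells have been described, were at most slightly higher. Of 12 measured in the Fgd5-ko-labelled library, 1 was at least 1.5-fold higher and 1 lower, beside 4.06% and 6.38% of all genes, with a median log2 ratio of 0.11. These were Snai1, a repressor that starts EMT, at 3.96 CPM in Procr-positive and 1.96 CPM in matched cells, and Fn1, fibronectin, at 2.71 and 5.21 CPM. The list summed to 2362 CPM in Procr-positive and 2209 CPM in matched cells, a log2 ratio of 0.10 (0.07 to 0.13), and to 2513 and 2499 CPM in the WT-labelled library (0.01, -0.12 to 0.13). Vim, the mesenchymal filament vimentin, had 499 and 452 CPM in the Fgd5-ko-labelled library, and 547 and 583 CPM in the WT-labelled library. Sparc, a matrix glycoprotein, had 1603 and 1520 CPM in the Fgd5-ko-labelled library. Zeb1, a repressor that drives EMT, had 0 UMIs in Procr-positive cells of either library. It was not counted as lower in either library, and its level in matched cells is not given here. The 0 is therefore not read as a difference between the sets.

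Wnt genes, which act upstream of Procr in cultured mouse mammary cells, showed no shared shift. Of 23 measured in the Fgd5-ko-labelled library, none was at least 1.5-fold higher and 1 was lower, beside 4.06% and 6.38% of all genes. The median log2 ratio was 0.02. The lower gene, Tcf7, a nuclear effector of the pathway, had 11.7 CPM in Procr-positive and 17.7 CPM in matched cells, a log2 ratio of -0.60 (-1.03 to -0.19). Ctnnb1, beta-catenin, had 156 and 180 CPM in the Fgd5-ko-labelled library, a log2 ratio of -0.21 (-0.32 to -0.10), and 116 and 150 CPM in the WT-labelled library, at -0.37 (-1.0003 to 0.21). Axin2, a target gene of the pathway, was found in 12.9% (9.16 to 17.5) of Procr-positive and 16.8% (14.8 to 18.8) of matched cells of the Fgd5-ko-labelled library.

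Of 17 Wnt genes measured in WT-labelled cells, 6 were at least 1.5-fold lower and none higher, beside 16.4% and 12.9% of all genes measured there. The 6 were Lgr4, Lrp5, Fzd1, Wnt5a, Wnt11 and Sfrp1, and Lgr4 alone had an interval below 0. Lgr4, an R-spondin receptor, had 45.5 CPM there in Procr-positive and 97.7 CPM in matched cells, a log2 ratio of -1.10 (-2.14 to -0.21). The same gene had, among Fgd5-ko-labelled cells, 76.2 and 77.3 CPM.

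Fgd5 was found in few Procr-positive cells. It had 17 UMIs (3.54 CPM) in Procr-positive and 95 UMIs (3.96 CPM) in matched cells of the Fgd5-ko-labelled library, and was found in 5.54% (3.13 to 8.96) and 6.42% (5.17 to 7.86) of them. Among WT-labelled cells it was found in 0 of 40 Procr-positive cells, which allows a share of up to 7.5%, and in 2 of 200 matched cells. The sets did not differ beyond counting error in either library. Endothelial cells held 105 and 86.4 CPM of Fgd5 in the Fgd5-ko-labelled library and the WT-labelled library, and fibroblasts 2.95 and 4.18 CPM, where all basal cells held 4.01 and 0.824 CPM.

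Other FGD and Cdc42 genes were near the matched level in the Fgd5-ko-labelled library. None of 15 measured, Fgd5 among them, passed 1.5-fold there, beside 4.06% higher and 6.38% lower of all genes. Cdc42 had 294 CPM in Procr-positive and 308 CPM in matched cells, and Fgd6, another exchange factor of the family, had 23.1 and 20.04 CPM. Cdc42ep5, a Cdc42 effector, had 37.3 and 42.4 CPM there, but 78.7 and 23.2 CPM in the WT-labelled library, a log2 ratio of 1.76 (0.84 to 2.65), with a UMI in 45% and 13.5% of cells. That difference of the WT-labelled library, from 19 and 28 UMIs, had no counterpart in the Fgd5-ko-labelled library. Of 7 genes of the list measured in WT-labelled cells, 2 (Cdc42ep5 and Cdc42ep4) were at least 1.5-fold higher and 2 (Pak2 and Wasl) lower. Of all genes measured there 12.9% were higher and 16.4% lower, and the median log2 ratio of the list was -0.18. Pak2, a kinase that binds active Cdc42, had 37.3 and 80.3 CPM there, a log2 ratio of -1.11 (-2.28 to -0.12).

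Of the remaining lists, counts are set beside the 4.06% higher and 6.38% lower of all genes in the Fgd5-ko-labelled library. None of 13 basement membrane, 18 immediate early, 10 heat shock, 14 interferon response and 14 glycolysis genes passed 1.5-fold. For Notch genes 1 of 10 (Notch3) was higher, for antigen presentation genes 1 of 14 (H2-Eb1) and for NF-kB genes 1 of 14 (Il6, with 33.8% of its UMIs from 1 cell). YAP targets had 1 higher (Nuak2) and 1 lower (Ankrd1) of 11. Atf3, a stress-induced immediate early factor, had 2959 CPM in Procr-positive and 2453 CPM in matched cells of the Fgd5-ko-labelled library, but 1184 and 1743 CPM in those of the WT-labelled library. Of luminal genes 2 of 11 (Cldn7 and Esr1) were lower in the Fgd5-ko-labelled library, where the list summed to 549 and 556 CPM.

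A few genes outside the lists and rule, named after their values were seen, were higher in Procr-positive cells of the Fgd5-ko-labelled library. Meg3, an imprinted long non-coding RNA, had 40.6 CPM in Procr-positive and 17.4 CPM in matched cells, a log2 ratio of 1.23 (0.97 to 1.47), and was found in 24.7% (19.7 to 30.3) and 14.9% (13.1 to 16.9) of cells. Fibroblasts of that library held 338 CPM of Meg3, against 24.0 CPM in all its basal cells, and the part of their RNA in the ratio was not tested. It had, in the WT-labelled library, 7 UMIs in Procr-positive cells, 71.4% from 1 cell, at 29.0 CPM against 36.4 CPM in matched cells. Flnc, the actin cross-linker filamin C, had 20.2 and 11.1 CPM in the Fgd5-ko-labelled library, and 2 and 18 UMIs in the WT-labelled library. Of the genes with high ratios, Saa2 had 98.2% of its UMIs from 1 Procr-positive cell, and Ccl11 and Cxcl10 had 54.4% and 56.0%, so they describe single cells.

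Fabp4, a fatty acid binding protein of adipocytes and of capillary endothelium, was also higher in the Fgd5-ko-labelled library, at 33.9 CPM in Procr-positive and 14.95 CPM in matched cells (log2 ratio 1.18, 0.91 to 1.45). It was found in 22.9% (18.01 to 28.3) and 17.9% (15.9 to 20.1) of cells, and in the WT-labelled library it had 37.3 and 45.6 CPM. The log2 ratio in the Fgd5-ko-labelled library was 0.79 (0.46 to 1.10) for cells with 1 Procr UMI. For the 28 cells with at least 2 it was 2.73 (2.11 to 3.36), and 9 of these held 53 of the 163 Fabp4 UMIs. Endothelial cells held 11839 CPM of Fabp4 in the Fgd5-ko-labelled library, and 3 of 5 adipocyte markers were at 0 in the Procr-positive cells. The part of RNA from other cells in this difference was not tested.

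Set between libraries, the Procr-positive cells differed in the same direction as their matched cells for most lists given here, which are a part of those compared. Some others, such as heat shock and interferon response, had small ratios of opposite sign in Procr-positive and matched cells. The log2 ratio of the Fgd5-ko-labelled library over the WT-labelled library for the antigen presentation list was 1.47 (1.29 to 1.65) in Procr-positive cells and 1.28 (1.20 to 1.35) in matched cells. For the immediate early list it was 1.06 (1.02 to 1.10) and 0.89 (0.87 to 0.91), and for the S phase list 0.62 (0.27 to 1.01) and 0.60 (0.46 to 0.74). For the G2/M list it was 4.26 (2.90 to 6.14), from 4 WT-labelled UMIs, and 2.45 (2.22 to 2.68). For the stem-cell list it was -0.02 (-0.18 to 0.15) and 0.06 (-0.02 to 0.14). Tspan8 was lower in the Fgd5-ko-labelled library, at -1.78 (-2.24 to -1.28) in Procr-positive and -1.10 (-1.43 to -0.74) in matched cells. Genotype, depth and library cannot be told apart in these ratios.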

How the data were processed

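For each library the deposited files give whole UMI counts by gene and cell barcode, unnormalized; their headers record a Cell Ranger program of version 3.1.0, per the file headers. Tools listed in the submitters' processing notes are Cell Ranger and Seurat 3.0, with mm9 as the build; no annotation is named. A deposited table lists the authors' cells with t-SNE coordinates, a score without unit, used here for the map and to pick cells, whose barcode suffix tells the libraries apart. All further values were computed here from those counts. The Fgd5-ko and WT libraries held 8798 and 10735 barcodes with 136697801 and 60566053 UMIs, of which 6064 and 6588 cells are listed.

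UMIs were summed over cells and divided by their total to give CPM, bounded by exact Poisson limits. For shares the Clopper-Pearson method was used and for log2 ratios exact conditional limits, at 95%. A count of 0 allows 3 counts. Matching took the nearest total UMIs without replacement. A gene or list member needed at least 20 UMIs over both sets to be measured, and 1.5-fold is a rule of size, not a test. No doublet caller was run, so doublets remain.

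The rule named Procr and Fgd5, and the 12 genes at either end of the log2 ratio in the Fgd5-ko-labelled library, with a mean of at least 50 CPM in both libraries, the same sign in both and, in the Fgd5-ko-labelled library, at most 20% of UMIs from 1 cell. Genes used to choose cells and mitochondrially encoded, ribosomal protein, haemoglobin and some sex-linked genes were left out. Of each list, the members with the largest ratio at 20 CPM were named, and other list members and genes were named after their values were seen. The cells, lists and genes were chosen with earlier results of these data known. Some results of the protein C and plasminogen list are not reported here. The calculation was tested on simulated sums with counting error alone. These had no variation between cells, so they do not check the intervals where few cells give most UMIs. Alternatives covered matching, filters, depth, scaling and the UMI minimum. Computations ran in Python 3.11.15 with SciPy 1.17.1, NumPy 2.4.6 and pandas 2.3.3, and figures in matplotlib 3.10.9.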

Additional observations from a re-analysis of the deposited data

Results flagged for a closer look

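Procr-positive basal barcodes also occurred outside the authors' table of cells, which the report does not use. By the same rule there were 42 of 642 basal barcodes (6.54%) in the library labelled Fgd5-ko, with up to 15 Procr UMIs and a median of 36248.5 UMIs. In the library labelled WT there were 10 of 553 (1.81%), with up to 5 Procr UMIs and a median of 6991.5 UMIs.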

How the results depend on the processing

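Of 156 recomputed main values, 116 stayed within their limits (the counting interval, or 1.5 times a count). Some of these could not move, such as the Mki67 or Top2a share of Procr-positive cells under other matching or scaling. The tally is therefore not a measure of stability. The log2 ratio of the G2/M sum in the Fgd5-ko-labelled library was -1.46 with 1 matched cell, -1.33 with unfiltered matched cells, -1.001 with the stromal filter with Dcn, -1.11 with basal markers at 1%, -2.59 in cells of 4000 to 12000 UMIs, -0.48 without Mki67 or Top2a cells, -1.35 as a mean over cells, -0.45 at 2 or more Procr UMIs, and, chosen after seeing the data, -1.44 at 1 or 2 Procr UMIs and -1.37 without the cell of most G2/M UMIs. It turned to 0.0654, and the list's median to 0.38, under the wider filter without Dcn (52 cells). In the WT-labelled library it was -1.49 with basal markers at 1% and -0.68 without Mki67 or Top2a cells. The S phase sum in the Fgd5-ko-labelled library was -0.29 with 10 matched cells, 0.34 at 2 or more Procr UMIs, -0.13 with the filter with Dcn, -0.44 with basal markers at 1%, -0.0499 in cells of 4000 to 12000 UMIs, -0.11 without Mki67 or Top2a cells and -0.47 at 1 or 2 Procr UMIs. Mki67 or Top2a was in 25.0% of cells at 2 or more Procr UMIs and in 5.00% at 4000 to 12000 UMIs. Other turned log2 ratios were Stmn1 (0.0644 and 0.0726 under the filters without and with Dcn), Hmgb2 (0.20 without Dcn, 0.0796 without Mki67 or Top2a cells), Mki67 (0.0138) and Top2a (0.56) at 2 or more Procr UMIs, Tspan8 (-0.16 with Dcn, -0.27 in cells of 4000 to 12000 UMIs) and, in the WT-labelled library, Flnc (0.9999 with 1 matched cell, 0.11 as a mean over cells) and Cd74 (-1.79 without the cell with most of its UMIs, chosen after seeing the data). The cause was not tested.

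Genes past 1.5-fold numbered 518 higher and 814 lower in the Fgd5-ko-labelled library, and 794 and 1006 in the WT-labelled library. With at least 5 UMIs per gene they were 1104, 1483, 1870 and 2405, and with at least 50 UMIs 244, 500, 207 and 330. In the Fgd5-ko-labelled library 878 were higher at 2 or more Procr UMIs and 795 with the filter with Dcn. In the WT-labelled library 264 were higher and 389 lower with 1 matched cell, 1581 lower with 10, and 395 higher and 661 lower with the filter with Dcn. Thinned Procr-positive shares were 0.834% and 2.08% in the Fgd5-ko-labelled library and 0.310% at 2000 UMIs in the WT-labelled library. Of the 12 highest genes 0, and of the 12 lowest 8, were shared with the rule at 20 CPM, and 2 and 3 at 200 CPM. The library labelled WT had no cell with 2 Procr UMIs and no G2/M value under the filter with Dcn, and its 40 cells limit its ratios. No paired analysis was possible because each genotype has 1 library.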
